A study of Bos taurus with 8 samples.

Results

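Collagen leaves the chondrocyte only after a long series of steps, and 40 genes of that series were examined here in cow chondrocytes of the superficial zone (SZCs) and of the deep zone (DZCs). They were chosen by name for their roles in folding, export, trimming and crosslinking of collagen, and all 40 were found among the 24596 genes of the count table. Cartilage came from the knee joints of wild-type calves aged 1 to 2 weeks. The slices of each zone were collected by joint, the tissue between them was discarded, and the released cells were cultured for 3 days in medium with serum before RNA was sequenced. Each zone was represented by 2 libraries, and both zones received the same culture. Reads were counted per gene without regard to strand.

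In the endoplasmic reticulum, prolines and lysines of the new chain are hydroxylated, sugars are added, and chaperones and prolyl isomerases guide the triple helix. The rod-like procollagen then leaves in enlarged vesicles with a protein coat called COPII. Outside the cell its end pieces are cut off, fibrils form, and lysyl oxidases and transglutaminases join neighbouring molecules. Cartilage depends on this route for its type II collagen network, and defects in many of these genes cause brittle bone, loose joint or skeletal growth disorders.

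Library totals lay between 19918970 and 21890549 counts, of which the 40 genes took between 2.52% and 3.07%. All 40 passed the filter on low counts. At these depths 3 counts, used as the floor below which a level cannot be shown, correspond to 0.129 to 0.187 CPM (counts divided by the TMM-scaled library size, the unit of every level given here). All 5 superficial zone markers examined, among them *PRG4*, were higher in both SZC libraries than in either DZC library. The study had already reported these markers as higher in SZCs from the same libraries. Their order was therefore known in advance and is not an independent check of the zones. All 9 chondrocyte markers were counted in every library. The summed level of these 9 was 136250 and 136819 CPM in SZCs, 529055 CPM in DZC replicate 1 and 205288 CPM in DZC replicate 2. *COL2A1* alone was at 64981 and 55516 CPM in SZCs and at 333205 and 118929 CPM in DZCs. The libraries of *ACAN*, *SOX9* and *HAPLN1* overlapped between the zones. *MATN3*, the only gene of these 9 called, was at 48.5 and 77.5 CPM in SZCs and at 186 and 334 CPM in DZCs. Its log2 fold change was -2.04 (edgeR exact test FDR 0.00212). Of 6 endothelial and blood markers, *HBB* was at 0 counts throughout, *PTPRC* and *CDH5* were at 0 counts in DZC replicate 1, and the summed level was 6.09 and 12.9 CPM in SZCs and 5.54 and 9.46 CPM in DZCs. The DZC libraries stood apart from each other. The summed level of 5 cell division genes was 12.2 CPM in DZC replicate 1 and 271 CPM in DZC replicate 2, against 151 and 177 CPM in SZCs. The summed level of 8 hypertrophic and bone markers was 12.3 CPM in DZC replicate 1 and 71.4 CPM in DZC replicate 2, against 2.59 and 1.68 CPM in SZCs. These 8 did not move together. *IHH*, the only one called of the 3 tested, had 13 and 5 counts in SZCs, 194 in DZC replicate 1 and 48 in DZC replicate 2. In contrast, *ALPL*, *SP7*, *IBSP*, *COL10A1* and *MMP13* had at most 1 count each in DZC replicate 1 and between 140 and 468 in DZC replicate 2. The summed level of 7 fibroblast and synovium markers, which include type I and III collagen genes, was 3314 and 13323 CPM in DZCs and 16499 and 24749 CPM in SZCs. In bulk RNA, fewer cells of a type and less RNA per cell cannot be told apart.

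Which steps of collagen production differ between the zones was asked first. The genes called lay among those that trim and crosslink collagen. Superficial zone cells had more *PCOLCE2*, an enhancer of procollagen trimming, and more *LOXL1* and *TGM2*, which crosslink matrix proteins, while deep zone cells had more of another lysyl oxidase, *LOXL4*. These 4 genes of the 40 were called by edgeR's exact test with a false discovery rate (FDR) below 0.05, against 2.93% of all 12857 genes tested. The 3 that were higher in SZCs compare with 2.23% of all genes called in that direction, and the 1 that was lower with 0.700%. None of the 28 genes for hydroxylation, folding and export was called. At 2.93% of all genes called, 28 genes are too few for this count to set these steps apart. Among the 28, 1 gene, *FKBP7*, had an unadjusted p-value below 0.05, against 9.09% of all genes tested. The median log2 fold change of SZCs over DZCs was 0.03 for the 40 genes and -0.04 for all genes tested. The libraries of the zones did not overlap for 11 of the 40 genes in the direction of SZCs and for 5 in the direction of DZCs, against 21.0% and 20.5% of all genes tested.

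**Figure D1:**
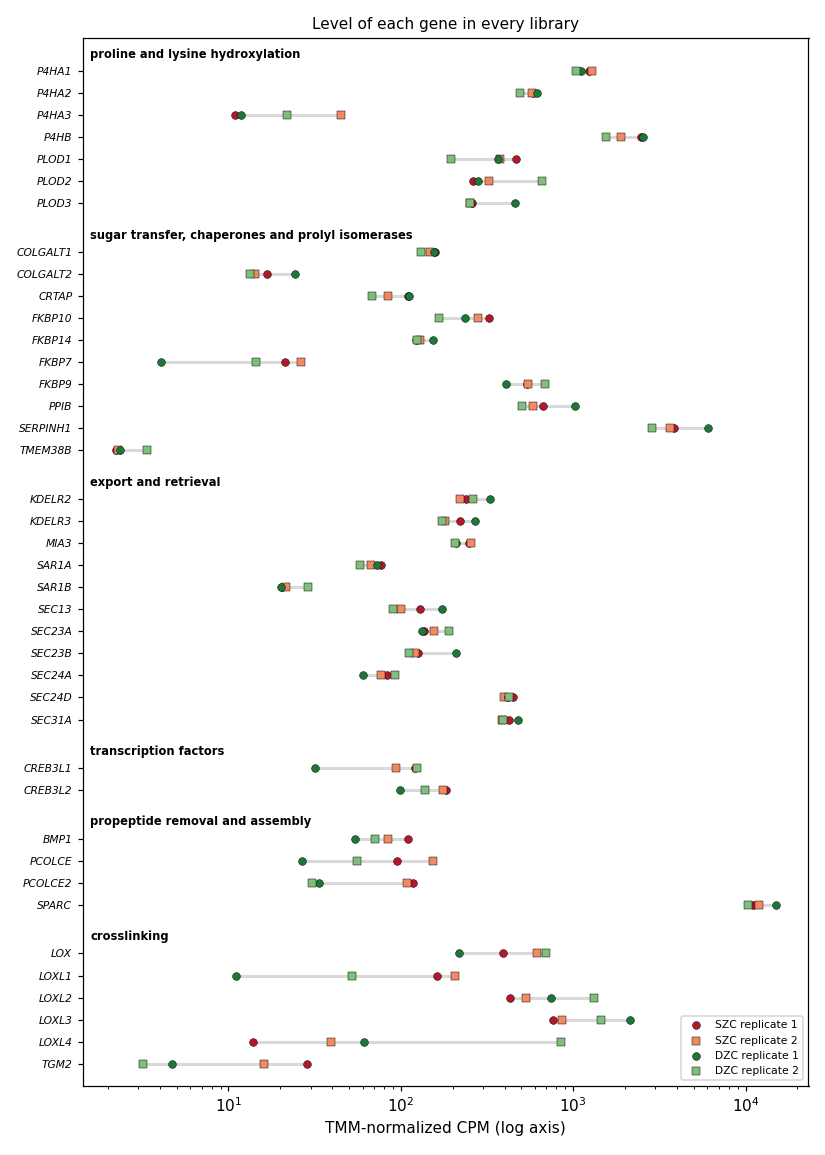
Level of each of the 40 genes in TMM-normalized CPM (log axis) in the 4 libraries, grouped by role, with a grey line from the lowest to the highest library. The SZC and DZC points are separate for *LOXL1*, *LOXL4*, *PCOLCE2* and *TGM2*, and those of *SEC24D* lie between 399 and 446.

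The calls depended on single libraries and on the test. Leaving out a library, which assumes that the lone library left in a zone varies like the pair of the other zone, gave 0 called members without SZC replicate 1 (0.436% of all genes tested) and 2, *LOXL4* and *TGM2*, without SZC replicate 2 (1.13%). Without DZC replicate 1, where 6.67% of all genes were called, there were 7, the 4 genes above with *LOXL2*, *PLOD1* and *PLOD2*. Without DZC replicate 2, where 20.7% of all genes were called, there were 13, the 4 genes above with *BMP1*, *CREB3L1*, *CREB3L2*, *FKBP7*, *LOX*, *LOXL3*, *PCOLCE*, *PLOD3* and *SEC23B*. Scaling by library totals alone left 2 called, *PCOLCE2* and *TGM2* (2.58% of all genes). *LOXL1* and *LOXL4* then did not pass (edgeR exact test FDR 0.133 and 0.161). The quasi-likelihood test of edgeR called 0 of all 12857 genes and so 0 of the 40, with 1126 of all genes and 7 of the 40 at an unadjusted p-value below 0.05.

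The enzymes that hydroxylate collagen come first in the pathway. *P4HA1*, *P4HA2* and *P4HA3* encode catalytic subunits of prolyl 4-hydroxylase, which stabilizes the triple helix, and *P4HB* encodes the protein disulfide isomerase that serves as their partner. None of these 4 or of the 3 lysyl hydroxylase genes *PLOD1*, *PLOD2* and *PLOD3* was called (2.93% of all genes). That count is too small to set the group apart from all genes. The log2 fold changes of the group lay between -0.68 and 0.72. *P4HA1* was at 1239 and 1287 CPM in SZCs and at 1118 and 1042 CPM in DZCs, so its libraries did not overlap, but the log2 fold change was only 0.23 with a 95% interval from -0.50 to 0.96. For *P4HA2* that interval was -0.66 to 0.80 and for *P4HB* -0.79 to 0.96, so a change of more than 2-fold lay outside the interval for each of these 3 genes. *P4HA3* had the largest log2 fold change of this group, 0.72 (standard error, SE, 0.72, edgeR exact test FDR 0.966). Its levels were 10.9 and 44.8 CPM in SZCs and 11.9 and 21.9 CPM in DZCs, so it differed more between the SZC libraries than between the zones. Without SZC replicate 2 its log2 fold change was -0.63.

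The lysyl hydroxylases did not move as a group. *PLOD1*, which acts on lysines within the helix, was at 464 and 379 CPM in SZCs and at 367 and 196 CPM in DZCs. *PLOD2*, which acts on the lysines of the chain ends that later form crosslinks, was at 263 and 326 CPM in SZCs and at 282 and 664 CPM in DZCs, so that DZC replicate 2 alone was high. *PLOD3*, which also transfers sugars, was at 258 and 250.5 CPM in SZCs and at 461 and 253 CPM in DZCs, with DZC replicate 1 the high library. Their log2 fold changes were 0.58, -0.68 and -0.49 in the same order, with FDR values of 0.870, 0.861 and 0.927 by edgeR's exact test. Without DZC replicate 1, *PLOD1* and *PLOD2* passed the threshold at log2 fold changes of 1.11 (FDR 0.0347) and -1.17 (FDR 0.00958), and *PLOD3* was at 0.013. Without DZC replicate 2 the values were 0.22 for *PLOD1* (FDR 0.701), 0.077 for *PLOD2* and -0.84 for *PLOD3*, which then passed (FDR 0.0280).

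Next come sugar transfer, chaperones and isomerases. *COLGALT1* and *COLGALT2* add galactose to hydroxylysine, and *SERPINH1* encodes the collagen-specific chaperone of the endoplasmic reticulum. *CRTAP* and *PPIB* encode partners of the prolyl 3-hydroxylase complex, the *FKBP* genes encode prolyl isomerases, and *TMEM38B* encodes an ion channel of the same compartment. Of these 10 genes, 0 were called by the exact test of edgeR (2.93% of all genes) and 0 by DESeq2 (3.09%), and 1 had an unadjusted p-value below 0.05. *FKBP7* had the largest difference of the group. It was at 21.4 and 26.4 CPM in SZCs and at 4.04 and 14.4 CPM in DZCs. Both SZC libraries lay above both DZC libraries, with DZC replicate 1 the lowest. Its log2 fold change was 1.37 (SE 0.64, edgeR exact test FDR 0.474), and it was 2.58 without DZC replicate 2 and 0.73 without DZC replicate 1.

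*SERPINH1* was at 3837 and 3660 CPM in SZCs and at 6019 and 2879 CPM in DZCs. The SZC libraries lay between the DZC libraries, and the same order was found for *PPIB*, at 667 and 583 CPM in SZCs and 1031 and 506 CPM in DZCs. *FKBP10*, whose product acts on lysyl hydroxylation as well as on the helix, was at 327 and 279 CPM in SZCs and at 235 and 166 CPM in DZCs, a log2 fold change of 0.60 (95% interval -0.15 to 1.35). The other 6 genes of the group had log2 fold changes between -0.35 and 0.10. *TMEM38B* had the fewest counts of the 40 genes when summed over the libraries, with between 38 and 75 in a library. Its interval from -1.52 to 0.83 was correspondingly wide.

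The export machinery had small differences between the zones. *MIA3* encodes the receptor that loads procollagen at exit sites, *SAR1A* and *SAR1B* the small GTPases that start the coat, *SEC23A*, *SEC23B*, *SEC24A* and *SEC24D* its inner layer, and *SEC13* and *SEC31A* its outer cage. *KDELR2* and *KDELR3* encode receptors that return escaped chaperones. Of these 11 genes, 0 were called by the exact test of edgeR (2.93% of all genes) or by DESeq2 (3.09%), and 0 had an unadjusted p-value below 0.05 (9.09%), counts too small to set the group apart from all genes. The log2 fold changes lay between -0.38 and 0.28. For 8 of the 11 the 95% interval lay within a 2-fold change in either direction, as it did for 16 of the 40 genes and 25.3% of all genes tested. *SEC24D* was at 446 and 399 CPM in SZCs and at 421 and 423 CPM in DZCs. *MIA3* was at 249.6 and 255 CPM in SZCs and at 208 and 207 CPM in DZCs, with replicates closer to each other than the zones were and a log2 fold change of 0.28 (95% interval -0.39 to 0.96). *SEC23B* had the largest log2 fold change, -0.38, and its levels were 126 and 120.4 CPM in SZCs against 210.3 and 111 CPM in DZCs. The value was 0.15 without DZC replicate 1 and -0.75 without DZC replicate 2 (FDR 0.0450). *SEC23A*, its paralog, was highest in DZC replicate 2 instead, at 190.1 CPM, against 133 CPM in DZC replicate 1 and 137 and 156 CPM in SZCs. Scaling by library totals alone moved the median log2 fold change of all genes from -0.04 to 0.26 and turned the sign of 12 of the 40 genes, the largest of which in size was that of *SEC23B*.

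*CREB3L1* and *CREB3L2* encode transcription factors held in the membrane of the endoplasmic reticulum, and the product of *CREB3L2* is known to drive *SEC23A* in chondrocytes. *CREB3L2* was at 183 and 175 CPM in SZCs and at 98.6 and 138 CPM in DZCs. Its libraries did not overlap between the zones, and its log2 fold change was 0.60 (SE 0.37, edgeR exact test FDR 0.749). *CREB3L1* was at 121 and 93.2 CPM in SZCs, 31.8 CPM in DZC replicate 1 and 125 CPM in DZC replicate 2. The odd library was DZC replicate 1, and the log2 fold change went from 0.46 to 1.77 without DZC replicate 2 (FDR 4.92e-06) and to -0.21 without DZC replicate 1.

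**Figure D2:**
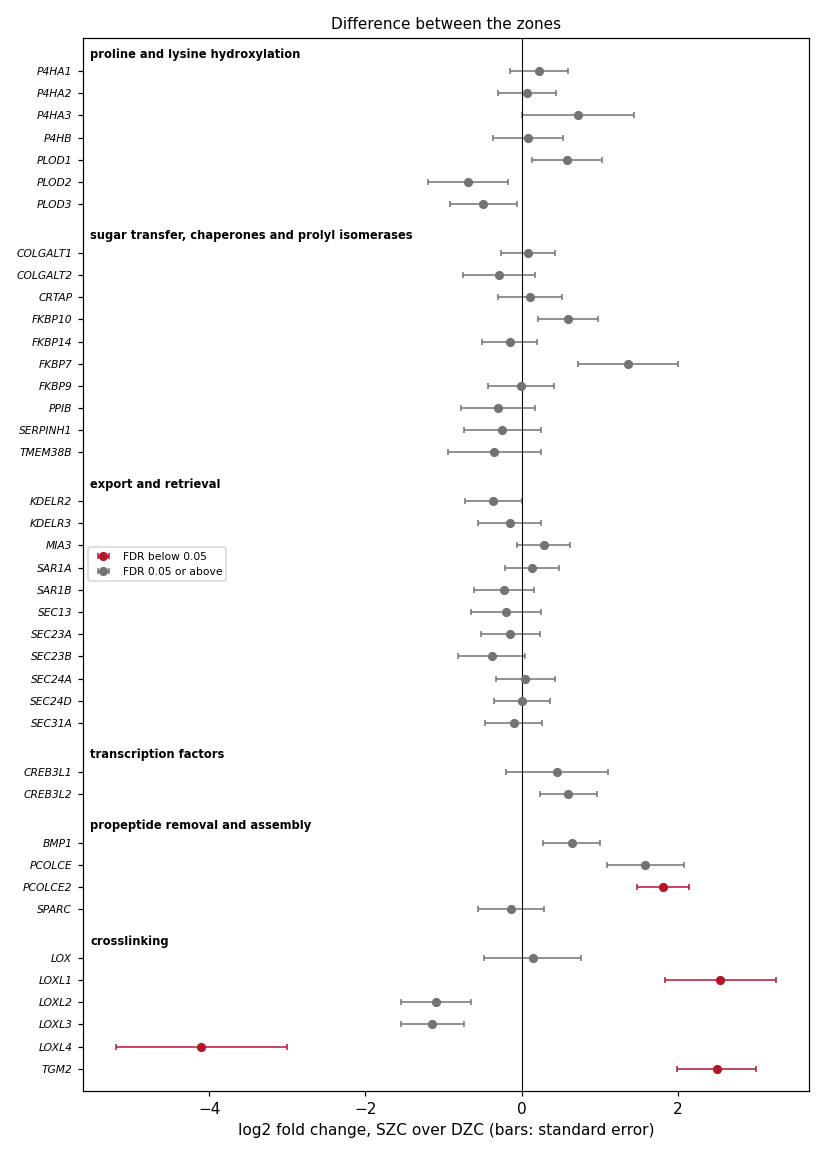
Log2 fold change of SZCs over DZCs for each of the 40 genes with its SE, red where the FDR of edgeR's exact test was below 0.05. The values of the 11 export genes lie between -0.38 and 0.28, and those of the 6 crosslinking genes run from -4.10 to 2.54.

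Outside the cell, *BMP1* encodes the protease that cuts off the C-terminal propeptide, and *PCOLCE* and *PCOLCE2* encode enhancers of that cut. *PCOLCE2*, which the files list as ENSBTAG00000016026, had 2586 and 2526 counts in the SZC libraries against 541 and 683 in the DZC libraries. Its level was 117 and 109 CPM in SZCs and 33.7 and 30.6 CPM in DZCs, a mean of 113 ± 6.12 CPM (SD, n = 2) against 32.1 ± 2.15 CPM (SD, n = 2). Each zone held together closely, and the zones did not overlap. The log2 fold change was 1.82 (SE 0.33, edgeR exact test FDR 2.14e-05), a 3.52-fold difference. Leaving out single libraries moved it only from 1.75 to 1.89, although the FDR was 0.265 without SZC replicate 1 and 0.0891 without SZC replicate 2.

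*PCOLCE* (ENSBTAG00000020528) had 2098 and 3545 counts in the SZC libraries against 428 and 1248 in the DZC libraries, or 95.3 and 153 CPM against 26.6 and 55.9 CPM. Its zones did not overlap, but replicate 2 was higher than replicate 1 in both. The log2 fold change was 1.59 (SE 0.50), with an FDR of 0.0621 by edgeR's exact test that just missed the threshold. It passed in DESeq2 (FDR 0.0363) and with common then gene-wise dispersion (0.0330 by edgeR's exact test), but not in the quasi-likelihood test of edgeR (0.377) or with library totals alone (0.184). Without DZC replicate 2 it also passed, at a log2 fold change of 2.24, and it was 1.15 without DZC replicate 1 (FDR 0.0533), 1.88 without SZC replicate 1 (FDR 0.295) and 1.21 without SZC replicate 2 (FDR 1.0).

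*BMP1* itself was at 110.1 and 84.3 CPM in SZCs and at 54.0 and 70.5 CPM in DZCs. The groups did not overlap, and its log2 fold change was 0.64 (95% interval -0.08 to 1.36, edgeR exact test FDR 0.681). *SPARC*, which encodes a collagen-binding glycoprotein, was at 11063 and 11897 CPM in SZCs and at 14934 and 10339 CPM in DZCs, so the SZC values lay between those of the DZC libraries. Of the 4 genes of this group, 3 had both SZC libraries above both DZC libraries, an order found for 21.0% of all genes tested.

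The crosslinking genes held the largest log2 fold changes of the 40 genes in either direction. Their replicates also differed most among groups, by a median absolute log2 difference of 1.25 in DZCs and 0.51 in SZCs (on log2(CPM + 1)). The groups were not compared by a test. Lysyl oxidases convert lysines of collagen and elastin to aldehydes, from which crosslinks form, and *TGM2* encodes a transglutaminase that joins glutamine to lysine side chains. Of the 6 genes, 2 were higher in SZCs and 1 was lower by the exact test, against 2.23% and 0.700% of all genes tested. The libraries did not overlap for 2 of the 6 in the direction of SZCs and for 3 in the direction of DZCs, against 21.0% and 20.5% of all genes, and those of *LOX* overlapped. *LOXL1* (ENSBTAG00000009086), whose product acts mainly on elastic fibres, had 3550 and 4786 counts in the SZC libraries and only 178 and 1157 in the DZC libraries. These counts correspond to 161 and 206 CPM in SZCs and to 11.1 and 51.9 CPM in DZCs. Both SZC libraries were well above both DZC libraries, which themselves differed 4.68-fold. The summed fibroblast and synovium markers had the same order of libraries, at 16499 and 24749 CPM in SZCs and 3314 and 13323 CPM in DZCs, as did *PCOLCE*, and their part in either difference was not tested. That sum was mostly *COL1A1*, *COL1A2* and *COL3A1*, and of the 7 markers *COL1A2* and *PDGFRA* alone had this order, while 4 (*COL1A1*, *THY1*, *DPT* and *TNXB*) overlapped between the zones. The log2 fold change was 2.54 (SE 0.71, edgeR exact test FDR 0.0302), a 5.83-fold difference. It was 4.07 without DZC replicate 2 and 1.83 without DZC replicate 1, and the FDR was 0.107 without SZC replicate 1 and 0.135 without SZC replicate 2.

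*TGM2* (ENSBTAG00000016208) had 628 and 372 counts in the SZC libraries against 76 and 71 in the DZC libraries, or 28.5 and 16.0 CPM against 4.73 and 3.18 CPM. The SZC mean of 22.3 ± 8.84 CPM (SD, n = 2) compared with a DZC mean of 3.96 ± 1.09 CPM (SD, n = 2). The zones did not overlap, and SZC replicate 1 was the highest library. The log2 fold change was 2.50 (SE 0.51, edgeR exact test FDR 0.000366), a 5.64-fold difference. Without SZC replicate 1 it was 2.01 with an FDR of 0.765.

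*LOXL4* (ENSBTAG00000020895) had 305 and 919 counts in the SZC libraries but 989 and 19092 in the DZC libraries. The levels were 13.9 and 39.6 CPM in SZCs and 61.5 and 856 CPM in DZCs. Both DZC libraries lay above both SZC libraries, and DZC replicate 2 was 13.9-fold above DZC replicate 1, a difference between DZC replicates larger in size than that of 99.9% of all genes tested (on log2(CPM + 1)). The log2 fold change was -4.10 (SE 1.09, edgeR exact test FDR 0.0452), or 17.2-fold higher in DZCs. Without DZC replicate 2 it was -1.19 (FDR 0.0465), and without SZC replicate 1 it was -3.53 (FDR 0.583). Without SZC replicate 2 it was -5.04 (FDR 0.0480) and without DZC replicate 1 it was -5.00. The gene did not pass in DESeq2 (FDR 0.189). DZC replicate 2 was also the library with the highest summed level of hypertrophic and bone markers, 71.4 CPM against 12.3 CPM in DZC replicate 1, although *IHH* of that list was higher in DZC replicate 1, and the part of such cells in the level of *LOXL4* was not tested.

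*LOXL2* and *LOXL3* encode further lysyl oxidases and were not called, although their DZC libraries lay above their SZC libraries. *LOXL2* was at 432 and 533 CPM in SZCs and at 745 and 1320.0 CPM in DZCs, a log2 fold change of -1.10 (SE 0.44, edgeR exact test FDR 0.262). *LOXL3* was at 764 and 856 CPM in SZCs and at 2125 and 1451 CPM in DZCs, a log2 fold change of -1.14 (SE 0.41, edgeR exact test FDR 0.136). The highest library was DZC replicate 2 for *LOXL2* and DZC replicate 1 for *LOXL3*. *LOXL3* passed in DESeq2 (FDR 0.0382) and without DZC replicate 2 (log2 fold change -1.38), while it did not pass without DZC replicate 1 (-0.84). *LOXL2* passed without DZC replicate 1 (-1.45) and was -0.61 without DZC replicate 2 (FDR 0.160). *LOX*, which encodes the founding enzyme of the family, was at 390.3 and 619.7 CPM in SZCs and at 218 and 697 CPM in DZCs. DZC libraries held both its lowest and its highest value, and its log2 fold change of 0.14 (95% interval -1.08 to 1.37) became 1.23 without DZC replicate 2 and -0.46 without DZC replicate 1.

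The make-up of the lysyl oxidase counts is given by each gene's share of the 5 genes' summed counts. These totals were 38786 and 52332 in SZCs and 50815 and 97610 in DZCs, and a share is one of counts and not of molecules, as transcript length was not corrected for. *LOXL1* made up 9.15% (95% Wilson interval 8.87% to 9.44%) and 9.15% (8.90% to 9.40%) in SZCs. In DZCs it made up 0.350% (0.303% to 0.406%) and 1.19% (1.12% to 1.26%). *LOXL4* made up 0.786% (0.703% to 0.879%) and 1.76% (1.65% to 1.87%) in SZCs. Its share was 1.95% (1.83% to 2.07%) in DZC replicate 1 and 19.6% (19.3% to 19.8%) in DZC replicate 2. *LOXL3* held 43.4% (42.9% to 43.9%) and 38.0% (37.6% to 38.4%) in SZCs, against 67.2% (66.8% to 67.6%) and 33.2% (32.9% to 33.5%) in DZCs. *LOX* held 22.2% (21.7% to 22.6%) and 27.5% (27.1% to 27.9%) in SZCs, against 6.89% (6.68% to 7.12%) and 15.9% (15.7% to 16.2%) in DZCs. *LOXL2* held 24.5% (24.1% to 25.0%) and 23.6% (23.3% to 24.0%) in SZCs, against 23.6% (23.2% to 24.0%) and 30.2% (29.9% to 30.5%) in DZCs. The shares of *LOX*, *LOXL1* and *LOXL4* did not overlap between the zones. For *LOXL4*, however, the intervals of SZC replicate 2 and DZC replicate 1 overlapped, and DZC replicate 2 alone was far higher. DZC replicate 1 was made up mostly of *LOXL3*. The intervals treat each read as independent, although reads amplified by PCR may be copies of the same molecule. They leave out variation between libraries, so they do not give the precision of a zone's share.

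Ratios within a library do not depend on how libraries are scaled, and 11 pairs of related genes were compared in this way. The ratio of *LOXL1* to *LOXL4* counts was 11.6 and 5.21 in SZCs and 0.180 and 0.0606 in DZCs, a difference of 6.22 in the mean log2 ratio. The ratio of *LOX* to *LOXL1* counts was 2.42 and 3.01 in SZCs and 19.7 and 13.4 in DZCs, a difference of -2.59. The zones did not overlap for either pair, and the exact two-sided permutation test gave p = 0.333 for each, the smallest that 2 libraries against 2 allow (1.0 after adjustment over the 11 pairs). The order for *LOXL1* to *LOXL4* was fixed in advance, since the levels of both genes lay apart between the zones in opposite directions. That ratio therefore restates their calls. *KDELR2* to *KDELR3* was the only other pair without overlap, so 3 of the 11 pairs did not overlap. Its log2 ratios were 0.130 and 0.281 in SZCs and 0.282 and 0.583 in DZCs. For *PCOLCE* to *PCOLCE2* the log2 ratio was higher in replicate 2 than in replicate 1 of both zones, at -0.30 and 0.49 in SZCs and -0.34 and 0.87 in DZCs. The ratio of *PLOD1* to *PLOD2* was 1.77 and 1.16 in SZCs and 1.30 in DZC replicate 1, and fell below 1 in DZC replicate 2 alone, at 0.295.

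**Figure D3:**
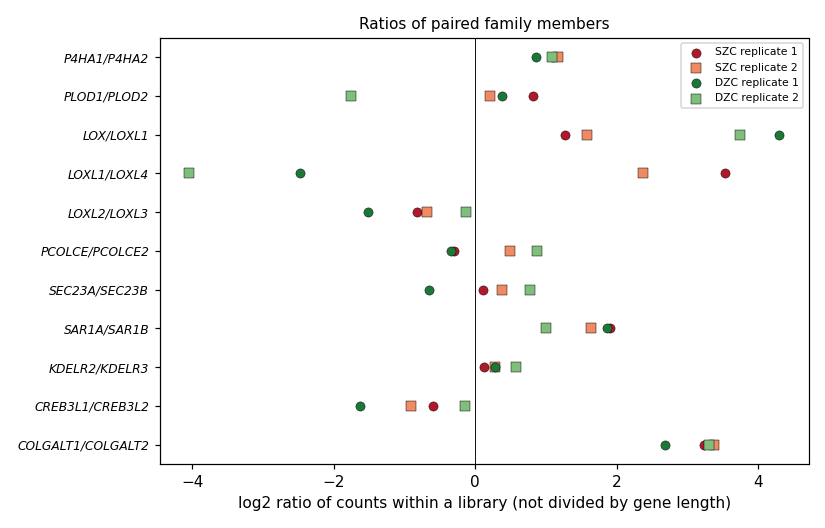
Log2 ratio of the counts of 2 related genes within each library for 11 pairs, not divided by gene length. For *LOXL1* to *LOXL4* the SZC libraries lie at 3.54 and 2.38 and the DZC libraries at -2.47 and -4.04, and for *LOX* to *LOXL1* the DZC libraries lie to the right of the SZC libraries.

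How far the machinery keeps up with its cargo was examined by dividing the summed counts of each group by those of 10 fibrillar procollagen genes in the same library. The 40 genes together had 240.1 and 240.3 counts per 1000 procollagen counts in SZCs and 82.5 and 148 in DZCs. The chaperone group had 52.2 and 48.7 in SZCs and 19.6 and 26.1 in DZCs, and the export genes had 19.3 and 17.7 in SZCs and 5.72 and 11.5 in DZCs. In log2 terms the SZC mean was above the DZC mean by 1.12 for all 40 genes, 1.34 for the hydroxylases, 1.16 for the chaperone group, 1.18 for export, 1.90 for the transcription factors and 1.18 for propeptide removal, with no overlap and an exact two-sided permutation p of 0.333, the smallest possible. Without DZC replicate 1 these differences were 0.70, 0.90, 0.95, 0.68, 0.78 and 0.82 in the same order, and without DZC replicate 2 that of the transcription factors was 3.03. *SPARC* alone made up 243510 and 276137 of the 250617 and 284165 counts of the propeptide group in SZCs. In DZCs it made up 240064 and 230662 of 241901 and 234165, so the value of that group is mostly that of *SPARC*. For the crosslinking genes the libraries overlapped, with 16.1 and 20.2 in SZCs and 7.62 and 24.9 in DZCs. Their log2 difference of 0.39 became -0.46 without DZC replicate 1. The difference for all 40 genes was much smaller without *COL2A1*, which had 1430295 and 1288535 counts in the SZC libraries against 5356206 and 2653311 in the DZC libraries. With *COL2A1* left out of the procollagens, that difference was 0.26 and the one for the hydroxylases 0.48. The libraries of the zones then overlapped for the chaperone group, with 125 and 96.3 in SZCs and 99.3 and 80.6 in DZCs, and for export, with 46.4 and 34.9 in SZCs and 29.0 and 35.6 in DZCs (exact permutation p of 0.667 for each). When medians over genes replaced sums, so that each procollagen gene weighed the same, the difference for all 40 genes was -1.56. Both measures use the same counts and differ in how genes are weighed. *COL2A1*, with the most counts of the 10 procollagen genes in every library, had a log2 fold change of -1.91. The median log2 fold change of the 10 was 0.88, and 7 of the 10 had positive values. Of these procollagen genes, 0 were called between the zones by edgeR's exact test (2.93% of all genes), with 5 at an unadjusted p-value below 0.05 (9.09%), and *COL2A1* had an FDR of 0.0658. The largest change among them was that of *COL5A3*, a minor type V chain, with 502 and 924 counts in SZCs, 11 and 180 in DZCs and a log2 fold change of 2.83 (edgeR exact test FDR 0.171).

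**Figure D4:**
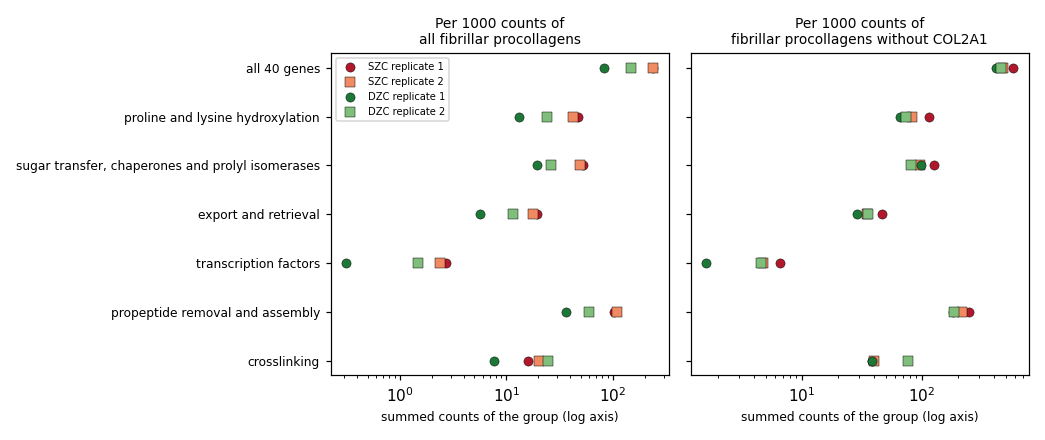
Summed counts of each group per 1000 counts of fibrillar procollagen genes in each library (log axes), with all 10 procollagen genes on the left and without *COL2A1* on the right. For all 40 genes the SZC libraries lie at 240.1 and 240.3 and the DZC libraries at 82.5 and 148 on the left, and on the right the libraries lie between 418 and 577.

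The 40 genes varied more within the deep zone than within the superficial zone. The median absolute log2 difference between replicates was 0.62 in DZCs and 0.19 in SZCs for the 40 genes, against 0.48 and 0.22 for all genes tested (on log2(CPM + 1)). On that scale the DZC replicates differed more than 2-fold for 9 of the 40 genes and the SZC replicates for 2, against 16.4% and 3.08% of all genes tested. Of the 9, *LOXL4*, *LOXL1*, *CREB3L1*, *FKBP7*, *LOX*, *PLOD2* and *PCOLCE* were higher in DZC replicate 2. *SERPINH1* and *PPIB* were higher in DZC replicate 1, as were the summed chondrocyte markers (though not *MATN3* among them), whose part was not tested. The genes lower in DZC replicate 1 thus include both directions of zone difference, *LOXL1* and *LOXL4*. In SZCs the 2 genes were *P4HA3* and *LOXL4*, both higher in replicate 2. Cell division genes differed in the same direction as the 7 genes in DZCs (12.2 and 271 CPM), as did the fibroblast and synovium markers (3314 and 13323 CPM), and the part of either in these differences was not tested.

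**Figure D5:**
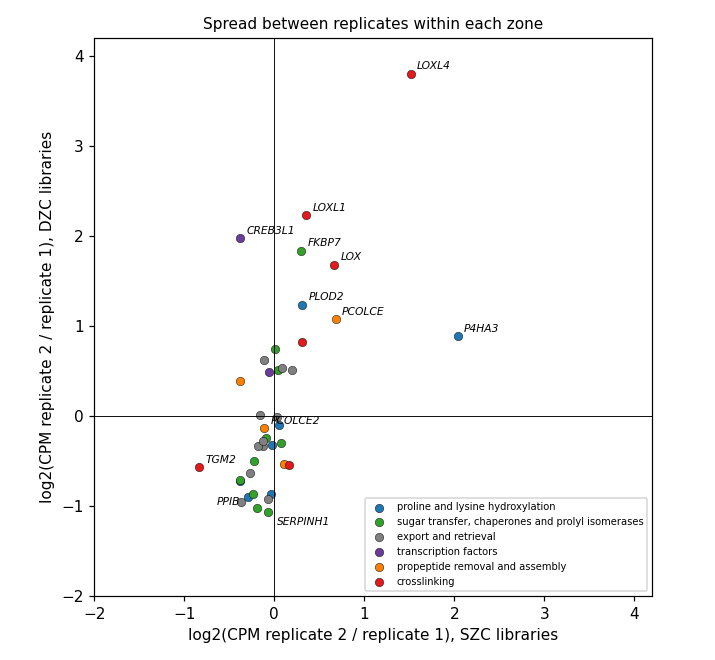
Log2 ratio of replicate 2 to replicate 1 in CPM for each of the 40 genes, in SZCs (horizontal) and DZCs (vertical), coloured by role. *LOXL4* lies farthest out, at 1.51 in SZCs and 3.80 in DZCs, and most other genes spread more along the DZC axis than along the SZC axis.

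A wider list of 36 genes with known roles in the same pathway was also read from the fit. Of these, 33 were named in the count table and 28 were tested, and 1 was called by edgeR's exact test, a share near the 2.93% of all genes. The libraries did not overlap for 7 of the 28 in the direction of SZCs and for 3 in the direction of DZCs, against 21.0% and 20.5% of all genes. The gene called was *F13A1*, which encodes the catalytic subunit of coagulation factor XIII, a transglutaminase that is also made by cartilage cells. It had 50 and 110 counts in the SZC libraries against 272 and 1514 in the DZC libraries, or 2.27 and 4.74 CPM against 16.9 and 67.9 CPM. The DZC libraries lay above the SZC libraries, as for *LOXL4*, and the log2 fold change was -3.59 (SE 0.73, edgeR exact test FDR 0.00114). It was -3.16 with an FDR of 0.183 without SZC replicate 1, -2.25 without DZC replicate 2. *TGM2*, the other transglutaminase called, was higher in SZCs. The 3 genes for N-terminal propeptide proteases were not called, with log2 fold changes of 0.78 for *ADAMTS2*, 0.85 for *ADAMTS3* and 1.34 for *ADAMTS14*, and they were among the 7 above. *TLL1*, a relative of *BMP1*, had few counts (59 and 33 in SZCs, 7 and 13 in DZCs) and a log2 fold change of 1.99 (edgeR exact test FDR 0.202). The median log2 fold change of the 28 genes was 0.02.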

How the data were processed

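The authors aligned single-end reads with STAR 2.5.2b to the cow genome (Ensembl build UMD 3.1), and deposited raw counts per gene, unstranded and without normalization. They also deposited their own fold changes and FDR values, of which only gene names were used, to fill 19 blank names. The ATAC-Seq samples were not analysed here, and neither were sequences or transcript lengths. Coordinates were used only to find overlapping genes. In the RefSeq gene table of assembly ARS-UCD2.0, 15 of the 40 genes overlap another gene (*PCOLCE2*, *LOXL2* and *LOXL3* among them). Reads were counted on UMD 3.1 with another annotation, so these overlaps need not hold there. How reads shared by overlapping genes were counted is not stated. Without strand, overlapping genes on opposite strands cannot be told apart.

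Counts were analysed with edgeR 4.0.16 (R 4.3.3) by the exact test named in the study's methods, with TMM scaling, edgeR's default filter and dispersion, and Benjamini–Hochberg adjustment over all genes tested. Standard errors and 95% intervals came from the negative binomial model with gene-wise dispersion. Alternatives were edgeR's quasi-likelihood test (also with the replicate number as a block), DESeq2 1.42.0, no filter, a filter at more than 1 CPM (2 libraries), size factors from DESeq2, scaling by library totals, dispersion fitted as common then per gene, and each library left out. Replicates differed by more than sampling noise (chi-square per degree of freedom 61.9 in SZCs and 303 in DZCs). The study calls them biological replicates, without saying whether the same number marks the same joint. Scripts were tested on simulated data first. The members, lists and tests were chosen with earlier results of these data known. Genes given with every library's value are those called, those without overlap and with a log2 fold change of at least 1 in size, and the largest change in each group. Others were named after their values were seen.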

Additional observations from a re-analysis of the deposited data

How the results depend on the processing

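Among the 40 genes, 4 were called by edgeR's exact test, and 4 were also called with no filter, with the filter on CPM and with DESeq2 size factors. The quasi-likelihood test called 0 genes of all those tested (0 higher and 0 lower in SZCs, with 1126 at an unadjusted p-value below 0.05) and so 0 of the 40, where the exact test called 377 and DESeq2 397. Library totals alone left 2 of the 40 (2 higher, 0 lower, 1 among the crosslinking genes) and 44 genes lower in SZCs among all tested, moving the share of calls that were higher in SZCs from 76.1% to 86.7%. Of the propeptide group 2 were called by DESeq2, with common then gene-wise dispersion, and with the replicate number as a block. That block, whose numbers may not mark shared joints, called 347 genes and 5 of the 40 (adding *PCOLCE*, edgeR quasi-likelihood FDR 0.0226), and libraries sharing a number deviated together from the means of their zones (correlation 0.42 over genes, which are not independent).

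Leaving out each library gave 58 to 2725 called genes (52 to 1607 higher and 6 to 1118 lower in SZCs) and 0 to 13 of the 40 (0 to 9 higher, 0 to 4 lower). By group the ranges were 0 to 2 for hydroxylation, 0 to 1 for chaperones, 0 to 1 for export, 0 to 2 for transcription factors, 0 to 3 for propeptide removal and 0 to 5 for crosslinking.

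Signs of small differences depended on scaling and on single libraries. With library totals alone the log2 fold change turned positive for *COLGALT2* (0.093), *PPIB* (0.10), *SERPINH1* (0.16), *FKBP9* (0.23), *FKBP14* (0.18), *SEC23A* (0.11), *SEC23B* (0.0075), *SEC13* (0.19), *SEC31A* (0.23), *SAR1B* (0.029), *KDELR3* (0.21) and *SPARC* (0.22). With the replicate block *FKBP9* was at 0.039 and *SEC24D* at -0.00083, and *SEC24D* was at -0.0015 both in DESeq2 and with its size factors. With single libraries left out, the log2 fold change ranged from -0.067 to 0.25 for *P4HA2*, -0.63 to 1.40 for *P4HA3*, -0.22 to 0.49 for *P4HB*, -1.17 to 0.077 for *PLOD2* and -0.84 to 0.013 for *PLOD3*. In the chaperone group it ranged from -0.021 to 0.22 for *COLGALT1*, -0.65 to 0.21 for *COLGALT2*, -0.20 to 0.51 for *CRTAP*, -0.71 to 0.31 for *PPIB*, -0.67 to 0.39 for *SERPINH1*, -0.33 to 0.42 for *FKBP9* and -0.28 to 0.015 for *FKBP14*. In the export group it ranged from -0.37 to 0.15 for *SEC23A*, -0.75 to 0.15 for *SEC23B*, -0.22 to 0.41 for *SEC24A*, -0.086 to 0.079 for *SEC24D*, -0.59 to 0.36 for *SEC13*, -0.22 to 0.052 for *SEC31A*, -0.0071 to 0.31 for *SAR1A*, -0.46 to 0.080 for *SAR1B* and -0.42 to 0.21 for *KDELR3*. The range was -0.21 to 1.77 for *CREB3L1*, -0.36 to 0.16 for *SPARC* and -0.46 to 1.23 for *LOX*. The cause was not tested.

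The difference between the zones in the log2 ratio of a pair turned sign for 5 pairs and ranged, with a library left out, from -0.62 to 0.76 for *LOXL2* to *LOXL3*, -0.78 to 0.43 for *PCOLCE* to *PCOLCE2*, -0.53 to 0.90 for *SEC23A* to *SEC23B*, -0.089 to 0.77 for *SAR1A* to *SAR1B* and -0.61 to 0.88 for *CREB3L1* to *CREB3L2*. Of the ratios to fibrillar procollagen, crosslinking was at -0.47 without *COL2A1* and from -0.46 to 1.24 with a library left out. With medians over genes the differences were -1.56 for all 40 genes, -1.70 for hydroxylation, -1.55 for chaperones, -1.90 for export, -0.83 for transcription factors, -0.29 for propeptide removal and -1.57 for crosslinking.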
